A study of Homo sapiens with 12 samples.

Results

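The genes described here are 10 long non-coding RNAs (lncRNAs) that host small nucleolar RNAs (snoRNAs) in their introns: GAS5 (ENSG00000234741), SNHG1 (ENSG00000255717), SNHG5 (ENSG00000203875), SNHG6 (ENSG00000245910), SNHG7 (ENSG00000233016), SNHG8 (ENSG00000269893), SNHG12 (ENSG00000197989), SNHG15 (ENSG00000232956, chr7:45022618-45026560 in GRCh37), SNHG16 (ENSG00000163597) and ZFAS1 (ENSG00000177410). They were taken by name and matched to the Ensembl identifiers of the count files, and all 10 were found among the 63677 genes counted. RNA was sequenced from HCC38, MDA-MB-468 and SUM149PT, established lines of basal-like (BL) breast cancer, 24 h after transfection of 50 nM of locked nucleic acid (LNA) GapmeRs, antisense oligonucleotides that direct RNase H to their RNA target. Cells received LNA1 and LNA2 together against 1 nuclear lncRNA, called RP19 in the labels (RP19 KD, here knock-down) or a non-targeting LNA (LNA NS), with 2 libraries for each of the 6 groups and 12 in all. Both treatments share the transfection reagent and a change of medium after 6 h. According to the methods of the study, MDA-MB-468 cells grew in DMEM/F12 with serum, SUM149PT cells in DMEM/F12 with serum, insulin and hydrocortisone, and HCC38 cells in RPMI with serum, so line and medium cannot be told apart. Each line is a single culture model, and no untransfected cells were among the samples. No label says whether both libraries of a group stem from different cultures. The p-values therefore measure the spread between these libraries, which may be technical.

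As background, snoRNAs guide the chemical modification and processing of ribosomal RNA, and most human snoRNAs are cut out of the introns of a host transcript after splicing. The spliced exons of the hosts described here encode no conserved protein. Many of these hosts are transcribed from 5′ terminal oligopyrimidine (TOP) promoters, whose RNAs begin with a C followed by a run of pyrimidines, the same start that ribosomal protein genes use and that ties translation to mTOR activity. Their exons carry short open reading frames, and when ribosomes read them the RNA is recognised by nonsense-mediated decay (NMD), so that hosts such as GAS5 are known to accumulate when translation is slowed or growth stops.

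The start of each gene is shown because a TOP start is described for many, though not all, of these hosts. RefSeq promoters (GRCh38) held 8 of the 10 genes, and SNHG6 and SNHG15 were not among them. The windows below hold 10 bases before the RefSeq start and 20 bases from it on, read 5′ to 3′ on the transcribed strand and placed in GRCh37 by an exact match. Capitals mark the first run of at least 5 pyrimidines that begins with C.
ZFAS1, chr20:47895169-47895198, plus strand: gccattcgttCTTTCgcgtctgcggtgccc
SNHG5, chr6:86388432-86388461, minus strand: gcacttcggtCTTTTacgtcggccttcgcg
SNHG12, chr1:28908366-28908395, minus strand: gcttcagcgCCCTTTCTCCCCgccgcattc
SNHG8, chr4:119199907-119199936, plus strand: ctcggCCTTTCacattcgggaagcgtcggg
SNHG16, chr17:74553836-74553865, plus strand: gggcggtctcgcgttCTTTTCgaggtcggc
SNHG7, chr9:139622617-139622646, minus strand: CCTTCTCgtcctctgcgtgcgccggaggct
SNHG1, chr11:62623338-62623367, minus strand: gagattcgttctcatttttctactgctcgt
GAS5, chr1:173838164-173838193, minus strand: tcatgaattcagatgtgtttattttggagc
Such a run was present in 6 of these 8 windows (75%), against 38.4% of 35116 RefSeq starts of the same length and 84.4% of 77 cytosolic ribosomal protein genes. In ZFAS1 and SNHG5 it began at the start itself. In SNHG12 it began 1 base, in SNHG8 5 bases and in SNHG7 10 bases before the start. In SNHG16 it began at base 6 from the start on, which is a G. The run of SNHG7, 7 bases long, ended before the start. Bases before the start are not part of the RNA, so this share is not a share of TOP starts. A start on C followed directly by at least 3 pyrimidines was held by ZFAS1, SNHG5, SNHG12 and SNHG7, or 4 of 8, against 5.45% of all RefSeq starts and 61.0% of the ribosomal protein genes. The RefSeq start of GAS5 lies outside the gene model of the annotation used here, and this window therefore says little about the start of the RNA that was counted. No match means only that these letters are not in this window.

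Between 32187835 and 56191152 reads per library were assigned to genes, and every one of the 10 hosts passed the filter on low counts, which kept 21325 genes. Levels are given as TMM-normalized CPM, counts scaled to a common library size with the composition of each library balanced against the others. The targeted lncRNA was lower in every knock-down library than in both LNA NS libraries of its line, at 0.796 and 0.611 CPM against 0.0230 and 0.0235 CPM in MDA-MB-468, 10.7 and 11.2 CPM against 0.576 and 0.416 CPM in SUM149PT, and 14.6 and 15.1 CPM against 1.48 and 2.05 CPM in HCC38. Of 8 basal markers, 6 to 8 reached a mean of 1 CPM in each group, as did the epithelial markers KRT8 and EPCAM in all of them. KRT14 and KRT17, basal keratins, were under 1 CPM in HCC38 LNA NS. Of 7 luminal markers, 5 also reached a mean of 1 CPM in each MDA-MB-468 and SUM149PT group, and 4 did in each HCC38 group. This threshold therefore does not separate basal from luminal identity. Markers of immune, endothelial, blood or stromal cells summed to between 9.56 and 22.9 CPM per group. In bulk RNA, a change in the RNA per cell and a change in the mix of cells cannot be told apart.

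Before the knock-down is considered, the lines given LNA NS already differed in these RNAs. The test of a difference between the 3 lines was passed by all 10 hosts (edgeR quasi-likelihood F test, Benjamini-Hochberg adjusted p under 0.1), as it was by 85.9% of all genes tested, so that this share is no mark of the family. By pairs of lines, 7 hosts differed between SUM149PT and MDA-MB-468 (68.5% of all genes), 9 between HCC38 and MDA-MB-468 (71.4%) and 8 between HCC38 and SUM149PT (69.6%). GAS5, named for its accumulation in growth-arrested cells and able to bind the glucocorticoid receptor, was highest in MDA-MB-468 with 450.3 and 385 CPM, intermediate in SUM149PT with 165 and 188 CPM, and lowest in HCC38 with 107 and 90.4 CPM. The same order was found for SNHG15, a short-lived transcript, with 124 and 121 CPM in MDA-MB-468, 48.3 and 56.5 CPM in SUM149PT and 28.6 and 24.5 CPM in HCC38. In both genes the libraries of the 3 lines did not overlap, and HCC38 stood 4.24-fold below MDA-MB-468 for GAS5 and 4.61-fold below it for SNHG15 (log2 differences of −2.09, SE 0.108, and −2.21, SE 0.111; edgeR adjusted p = 8.9e-11 and 6.9e-11).

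HCC38 was also low in ZFAS1, the antisense partner of ZNFX1, at 80.7 and 67.1 CPM against 254 and 224 CPM in MDA-MB-468 and 244 and 286 CPM in SUM149PT. The latter pair of lines did not pass the test for ZFAS1 (log2 difference 0.15, SE 0.114, adjusted p = 0.273). SNHG12, the host of SNORD99, ranged most widely between SUM149PT, at 102 and 121 CPM, and HCC38, at 37.1 and 31.7 CPM, with 56.6 and 49.7 CPM in MDA-MB-468. SNHG5, whose RNA has been described as a binder of Staufen, went the other way and was highest in HCC38, at 84.0 and 63.7 CPM, against 42.5 and 35.2 CPM in MDA-MB-468 and 26.9 and 33.7 CPM in SUM149PT. SNHG16 followed it, with 32.9 and 31.8 CPM in HCC38, 24.6 and 26.2 CPM in MDA-MB-468 and 22.0 and 19.0 CPM in SUM149PT. The family therefore had no single order of lines.

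Of the remaining hosts, SNHG1, one of the first hosts found to carry several snoRNAs in a transcript without a protein, had 358 and 273 CPM in MDA-MB-468, above 195 and 225 CPM in SUM149PT and 206 and 176 CPM in HCC38, and the latter pair did not pass (adjusted p = 0.346). SNHG7, a host of H/ACA snoRNAs, was lower in HCC38, at 49.1 and 44.3 CPM, than in MDA-MB-468, at 81.9 and 88.6 CPM, or SUM149PT, at 71.2 and 80.3 CPM, which did not differ beyond their spread (adjusted p = 0.23). For SNHG8, also an H/ACA snoRNA host, only SUM149PT stood apart, at 52.9 and 67.6 CPM against 50.1 and 49.0 CPM in MDA-MB-468 and 49.7 and 41.7 CPM in HCC38 (MDA-MB-468 against HCC38, adjusted p = 0.416). SNHG6 was at 29.6 and 31.4, 33.9 and 40.9, and 46.4 and 34.9 CPM in the order MDA-MB-468, SUM149PT and HCC38, with an adjusted p of 0.0733 for any difference between lines. That test was passed by 9 hosts rather than 10 without replicate 1 or 2 of MDA-MB-468 LNA NS, replicate 2 of SUM149PT LNA NS or replicate 1 of HCC38 LNA NS.

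**Figure D1:**
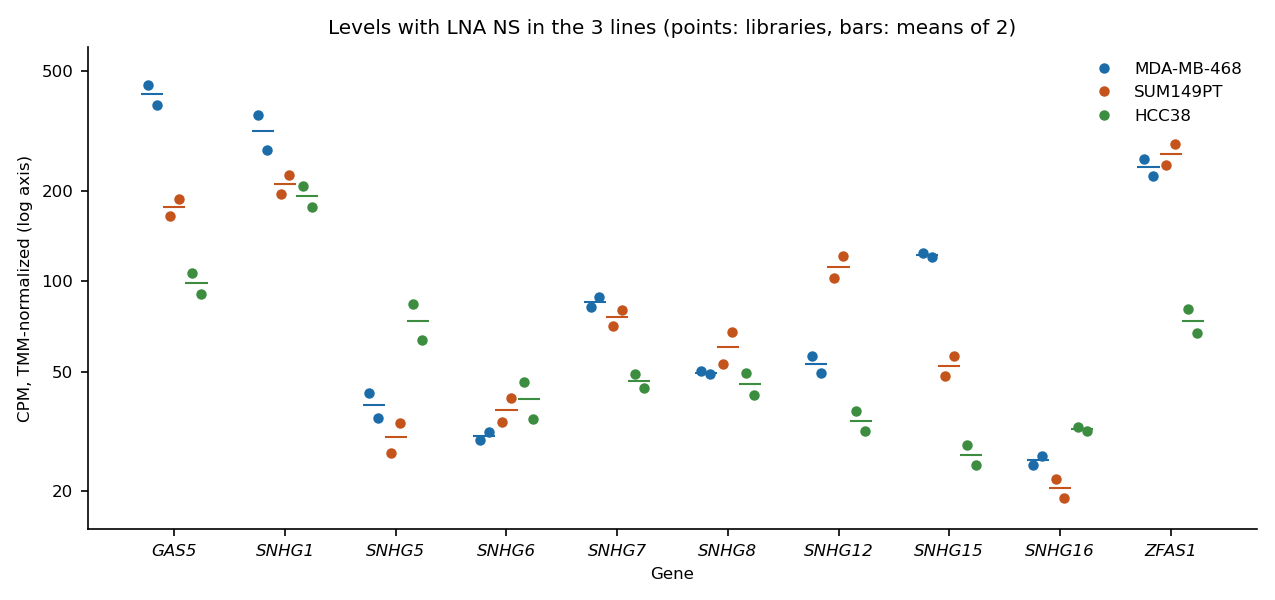
Level of each host in the LNA NS libraries, in TMM-normalized CPM on a log axis, by gene and line. Points are single libraries and bars the means of 2; GAS5, SNHG15, ZFAS1 and SNHG12 are lowest in HCC38, where SNHG5 and SNHG16 are highest.

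Compared between genes per kilobase of merged exons, GAS5 and SNHG1 had the highest levels in each line, although GAS5 overlapped ZFAS1 in SUM149PT and SNHG6 in HCC38. In MDA-MB-468 with LNA NS their levels were 84.7 and 79.3 CPM per kb, with overlapping libraries, followed by SNHG15 with 31.0 and ZFAS1 with 28.7 CPM per kb, and the lowest was SNHG5 with 3.08 CPM per kb. In HCC38 SNHG1 stood alone with 48.1 CPM per kb, and the 7 hosts from SNHG7 at 9.54 down to SNHG16 at 5.60 CPM per kb each overlapped the next in order. The order below the first pair depends on the gene model. The annotation gives SNHG16 a span of 113259 bp and SNHG5 one of 28442 bp, and with the length of the canonical transcript in place of all exons SNHG16 moved from the ninth to the fourth place in MDA-MB-468, at 51.0 CPM per kb, while GAS5 and SNHG1 still led in all 3 lines.

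After knock-down, 9 of the 10 hosts rose and 1, SNHG7, fell on average over the lines (adjusted p under 0.1, edgeR quasi-likelihood test), where 28.4% of all genes rose and 26.5% fell. In MDA-MB-468, 9 rose and 1 fell (background 24.9% up and 25.7% down), and again 9 and 1 in SUM149PT (20% and 18.0%). In HCC38, 8 rose and 1 fell (15.5% and 18.4%), and SNHG6 did not pass, although it did by DESeq2. The count in HCC38 rested on single libraries. It was 2 (GAS5 and SNHG15) without replicate 2 of LNA NS or replicate 2 of the knock-down in that line, although all fold changes kept their direction. A rise in each of the 3 lines was called for 8 hosts, against 6.6% of all genes, and a fall in each for SNHG7 alone, against 8.74%.

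The changes were moderate in size. The 10 hosts had a median log2 fold change of 0.35 in HCC38, 0.77 in MDA-MB-468 and 0.79 in SUM149PT, while the median of all genes lay between 0 and 0.03. Among called changes, SNHG1 and SNHG16 rose over 2-fold in MDA-MB-468, as did 9.21% of all genes, and SNHG1 and SNHG5 in SUM149PT, as did 6.31%. The largest rise in HCC38 was the 1.64-fold of GAS5, where 4.96% of genes rose over 2-fold, and on average over the lines no host did, against 7.09%. SNHG7 fell over 2-fold in MDA-MB-468 (11.0% of all genes), in HCC38 (4.41%) and on average (5.43%), but not in SUM149PT (4.31%). The libraries of the 2 treatments did not overlap for any host in any line. The 9 rising hosts lay above in each line, where 30.6% of genes in HCC38, 35.3% in MDA-MB-468 and 33.7% in SUM149PT did so, and SNHG7 lay below in each, as did 30.9%, 34.5% and 29.4% of genes. As a further frame, 142 lncRNA genes had a mean of at least 10 CPM, these hosts included. Of these, 45.1% rose on average, with a median log2 fold change of 0.16.

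**Figure D2:**
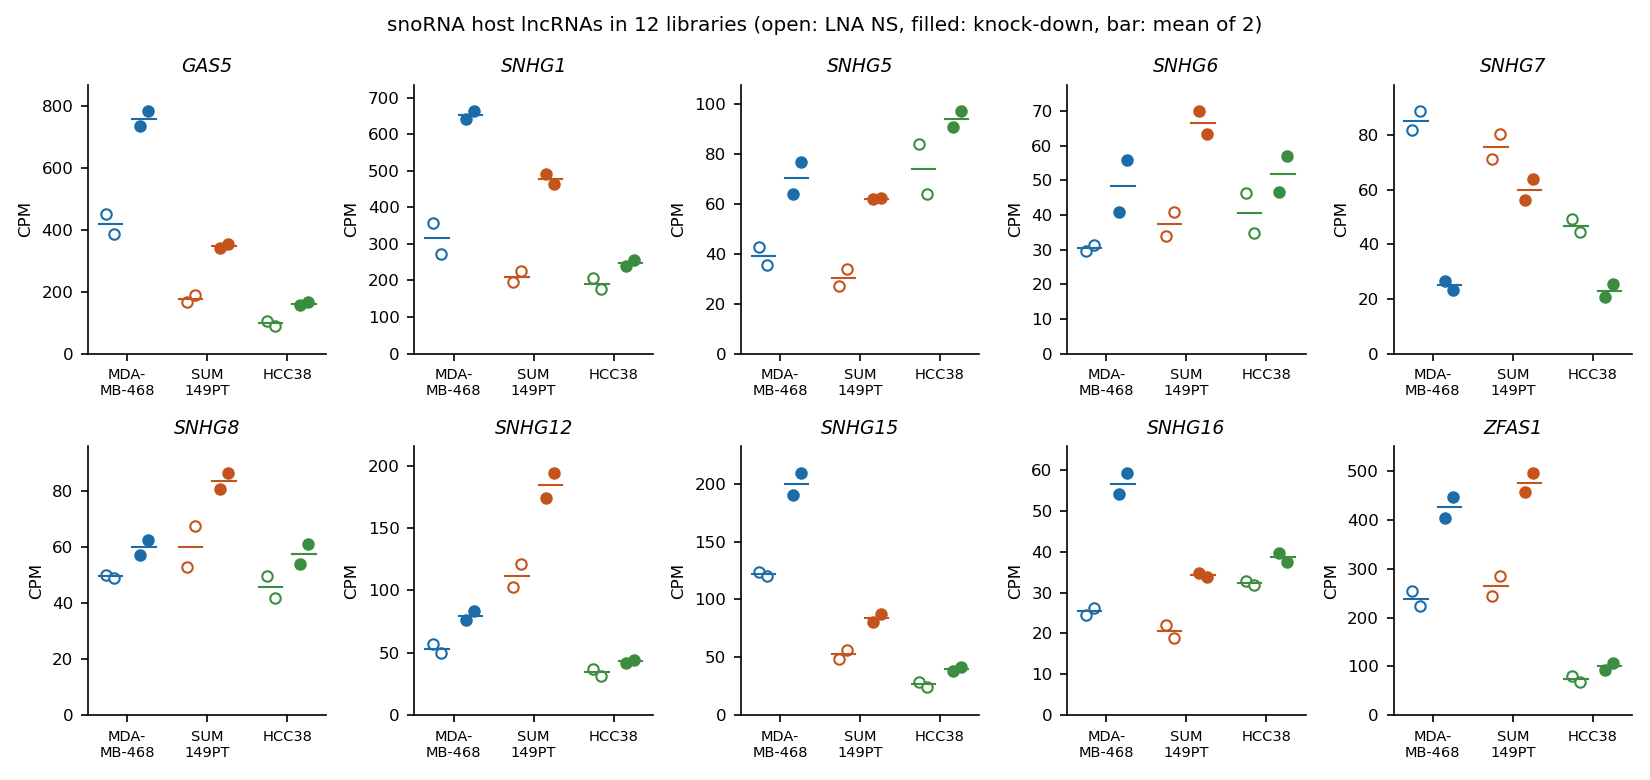
Level of each host in the 12 libraries, in TMM-normalized CPM on linear axes that start at 0, by line. Open points are LNA NS libraries, filled points knock-down libraries and bars the means of 2; filled points lie above open points in every line for 9 hosts and below them for SNHG7.

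GAS5 was among the hosts that changed most evenly. It went from 450.3 and 385 to 735 and 782 CPM in MDA-MB-468, from 165 and 188 to 340.0 and 355 CPM in SUM149PT, and from 107 and 90.4 to 156 and 167 CPM in HCC38. All knock-down libraries were higher than both LNA NS libraries of their line, and the knock-down libraries of HCC38 reached about the level that SUM149PT had with LNA NS. The rises were 1.82-, 1.97- and 1.64-fold, with a mean log2 fold change of 0.85 (SE 0.0601, adjusted p = 1.1e-08). The differences between the 3 responses did not pass (interaction adjusted p = 0.382), and HCC38 minus SUM149PT, the largest of them, was −0.26 (SE 0.146).

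SNHG15 behaved alike in that it rose in all lines by similar amounts. Its level was 124 and 121 CPM with LNA NS and 190.4 and 209 CPM after knock-down in MDA-MB-468, 48.3 and 56.5 against 80.6 and 87.5 CPM in SUM149PT, and 28.6 and 24.5 against 37.7 and 41.1 CPM in HCC38. The log2 fold changes of 0.71, 0.68 and 0.57 (SE 0.105 to 0.109) had an interaction adjusted p of 0.751. GAS5 and SNHG15 were the 2 rising hosts whose HCC38 call was kept in each of the 12 fits without 1 library.

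SNHG1 and SNHG5 rose strongly in MDA-MB-468 and SUM149PT and little in HCC38. SNHG1 went from 358 and 273 to 643 and 663 CPM in MDA-MB-468 and from 195 and 225 to 492 and 464 CPM in SUM149PT, but from 206 and 176 to only 239 and 255 CPM in HCC38. Its fold changes were 2.07, 2.28 and 1.29. For SNHG5 the levels went from 42.5 and 35.2 to 63.9 and 76.8 CPM, from 26.9 and 33.7 to 61.9 and 62.2 CPM and from 84.0 and 63.7 to 90.6 and 96.9 CPM in the same order of lines. In HCC38 the higher LNA NS library of SNHG5 came close to the lower knock-down library, and the log2 fold change of 0.34 passed narrowly (SE 0.142, adjusted p = 0.0873).

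SNHG16, which is also known from neuroblastoma, gave the largest rise of the family in MDA-MB-468, from 24.6 and 26.2 to 54.1 and 59.3 CPM (2.23-fold, log2 1.16, SE 0.104, adjusted p = 2.9e-07). In SUM149PT it went from 22.0 and 19.0 to 34.8 and 33.8 CPM, a 1.67-fold rise, and in HCC38 from 32.9 and 31.8 to 39.7 and 37.5 CPM, a 1.20-fold rise with adjusted p = 0.0768. This HCC38 call was lost without any 1 of the 4 HCC38 libraries, either MDA-MB-468 LNA NS library or either SUM149PT knock-down library. HCC38 thus had the highest level with LNA NS and MDA-MB-468 the highest after knock-down.

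ZFAS1 rose by similar amounts in MDA-MB-468, from 254 and 224 to 404 and 448 CPM, and in SUM149PT, from 244 and 286 to 457 and 497 CPM. In HCC38 it rose from 80.7 and 67.1 to 92.9 and 106 CPM. The fold changes were 1.78, 1.80 and 1.35, and the test of their difference lay just above the threshold (interaction adjusted p = 0.102). SNHG12 showed the same graded picture at lower levels, from 56.6 and 49.7 to 75.9 and 83.0 CPM, from 102 and 121 to 174 and 194 CPM and from 37.1 and 31.7 to 41.6 and 44.3 CPM, or 1.50-, 1.65- and 1.25-fold (interaction adjusted p = 0.167).

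SNHG6, a host of a box C/D snoRNA, went from 29.6 and 31.4 to 40.9 and 55.7 CPM in MDA-MB-468, from 33.9 and 40.9 to 69.9 and 63.3 CPM in SUM149PT, and from 46.4 and 34.9 to 46.8 and 56.9 CPM in HCC38, where the groups almost touched (log2 fold change 0.35, SE 0.159, adjusted p = 0.12). SNHG8 changed least of the rising hosts on average, with a mean log2 fold change of 0.36 (SE 0.071, adjusted p = 5.0e-04). In MDA-MB-468 its level went from 50.1 and 49.0 to 57.3 and 62.6 CPM. This 1.21-fold rise passed at an adjusted p of 0.0859, a call lost without any 1 of the 4 libraries of that line or without either SUM149PT knock-down library. In SUM149PT it went from 52.9 and 67.6 to 81.0 and 86.6 CPM (1.39-fold; the call was lost without replicate 1 of LNA NS), and in HCC38 from 49.7 and 41.7 to 54.0 and 61.3 CPM (1.26-fold).

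SNHG7 was the exception in direction. In MDA-MB-468 it fell from 81.9 and 88.6 to 26.6 and 23.4 CPM, in HCC38 from 49.1 and 44.3 to 20.5 and 25.5 CPM, and in SUM149PT from 71.2 and 80.3 to 56.0 and 63.9 CPM. The level was 3.41-fold lower in MDA-MB-468, 2.03-fold lower in HCC38 and 1.26-fold lower in SUM149PT, with log2 fold changes of −1.77 (SE 0.125), −1.02 (SE 0.124) and −0.34 (SE 0.121) and adjusted p of 2.3e-08, 1.9e-05 and 0.0441 by edgeR. The call in SUM149PT was lost without replicate 1 of the knock-down or replicate 2 of LNA NS. SNHG7 had made up 5.57% to 7.41% of the summed CPM of the 10 hosts in the LNA NS libraries and made up 0.948% to 3.35% after knock-down.

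**Figure D3:**
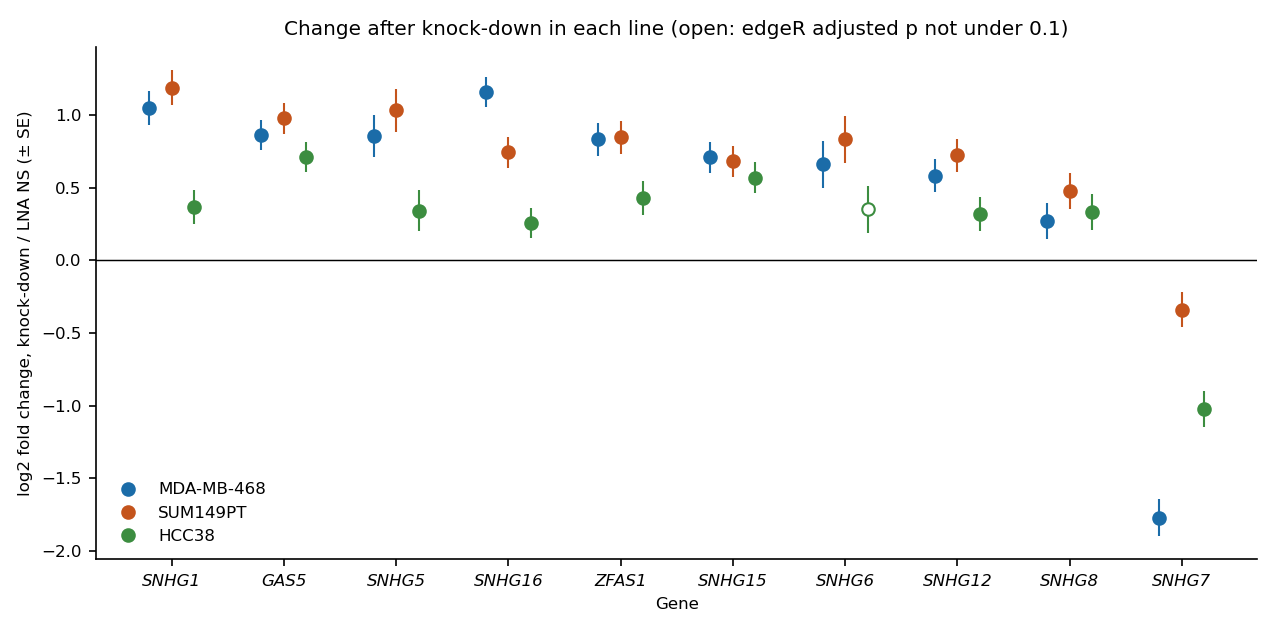
Log2 fold change of each host after knock-down against LNA NS in the 3 lines, with the standard error of the edgeR fit, ordered by the mean change. Filled points have an adjusted p under 0.1 and the open point, SNHG6 in HCC38, does not; SNHG1, SNHG5 and SNHG16 change less in HCC38 than in the other lines, and SNHG7 lies below 0 in all 3.

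The responses differed between the lines for 4 of the 10 hosts (SNHG1, SNHG5, SNHG7 and SNHG16), against 32.4% of all genes tested, a share near the background. For SNHG1, the response in HCC38 was lower than in MDA-MB-468 by a log2 difference of −0.68 (SE 0.167) and lower than in SUM149PT by −0.82 (SE 0.167), while MDA-MB-468 and SUM149PT differed by 0.14 (SE 0.167, adjusted p = 0.674). SNHG5 gave differences of −0.51 (SE 0.202) and −0.69 (SE 0.203) for HCC38 against the same lines. SNHG16 differed in each pair, with HCC38 minus MDA-MB-468 at −0.90 (SE 0.146), HCC38 minus SUM149PT at −0.49 (SE 0.147) and SUM149PT minus MDA-MB-468 at −0.41 (SE 0.148). SNHG7 differed in each pair as well, with SUM149PT minus MDA-MB-468 at 1.43 (SE 0.172, adjusted p = 1.2e-04), HCC38 minus MDA-MB-468 at 0.75 (SE 0.174) and HCC38 minus SUM149PT at −0.68 (SE 0.172). Without replicate 2 of HCC38 LNA NS, 7 hosts passed, with SNHG6, SNHG12 and ZFAS1 added. SNHG5 was lost without replicate 1 of either HCC38 group.

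Summed over the 10 hosts, the level went from 1472 and 1283 to 2292 and 2463 CPM in MDA-MB-468, from 961 and 1118 to 1848 and 1907 CPM in SUM149PT and from 721 and 607 to 819 and 892 CPM in HCC38. GAS5, SNHG1 and ZFAS1 together held 54.6% to 72.2% of this sum with LNA NS and 59.3% to 77.8% after knock-down, so the sum mostly follows these genes.

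The snoRNAs that lie within the hosts could be followed in part. The counts and the annotation shared 6 of them by position, SNORD78 in GAS5, SNORD99 in SNHG12, SNORD1B in SNHG16, and SNORD12, SNORD12B and SNORD12C in ZFAS1. They are box C/D snoRNAs, a class that guides 2′-O-methylation of RNA. They span 65 to 91 bp, polyA selection keeps few mature snoRNAs, and reads there cannot be told apart from unspliced host RNA. The precision is low, with 101 counts for SNORD1B to 830 for SNORD99 over the 12 libraries. On average over the lines all 6 rose, with a median log2 fold change of 0.91. By DESeq2 4 passed, as did 4 to 6 in the fits without 1 library.

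SNORD78 rose in MDA-MB-468 from 0.823 and 0.691 to 2.03 and 1.98 CPM (log2 fold change 1.40, SE 0.366, adjusted p = 0.0053), while its host GAS5 had 0.86 there. SNORD12 went from 0.357 and 1.28 to 2.09 and 1.62 CPM in MDA-MB-468 and from 1.21 and 1.01 to 2.42 and 2.44 CPM in SUM149PT. SNORD99 went from 1.04 and 0.611 to 1.54 and 1.18 CPM in MDA-MB-468, where it did not pass, and from 2.20 and 2.67 to 3.29 and 4.96 CPM in SUM149PT (adjusted p = 0.063). In SUM149PT 5 of the 6 passed, with adjusted p from 0.0556 to 0.0962, but 1 did by DESeq2, 2 with a replicate block and 0 to 4 in the fits without 1 library. In MDA-MB-468 it was 2 of 6, with 1 without replicate 1 of the knock-down and 4 without replicate 2 of LNA NS. In HCC38 edgeR called 0 of 6, with 1 at an unadjusted p under 0.05, and DESeq2 called 0.

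Several hosts overlap another gene on the opposite strand. The libraries were strand-specific, but the sources used here do not give the strand setting of the counting, so reads of a host and its partner cannot be told apart from the counts alone. ZNFX1, a helicase gene that overlaps ZFAS1, rose in all 3 lines with log2 fold changes of 1.10, 1.11 and 1.06, more than the 0.83, 0.85 and 0.43 of ZFAS1. DIPK1B, opposite SNHG7, did not pass in any line (mean −0.07, adjusted p = 0.686) and had a mean of 6.22 CPM. TRNAU1AP, opposite SNHG12, had a mean of −0.04 (adjusted p = 0.629), and PRSS12, opposite SNHG8, rose in MDA-MB-468 by 2.11, more than SNHG8 with 0.27. SNHG1 and SNHG15 had no opposite-strand partner in the annotation, and both rose in the 3 lines. Most of the hosts are also short, with a median span of 6716 bp (mean of the middle pair) against 21770 bp for all annotated genes tested. SNHG16 (113259 bp) and SNHG5 (28442 bp) exceeded the latter, and ZFAS1 (21423 bp) and GAS5 (10324 bp) also spanned over 10 kb. Of the genes with a span under 10 kb, 26.9% rose on average, with a median log2 fold change of 0.13.

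Other snoRNA hosts outside the 10 were read from a list of further non-coding hosts. Of 15 measured, 11 rose and 0 fell on average over the lines (1 fell without replicate 1 of the SUM149PT knock-down), with a median log2 fold change of 0.42 against 0.04 for all genes tested. By line, 12 rose in MDA-MB-468 (median 0.56), 5 in SUM149PT (0.13) and 6 in HCC38 (0.28). The lowest median was thus in SUM149PT, where the 10 hosts had 0.79, close to their 0.77 in MDA-MB-468. This difference between the lists was not tested. EPB41L4A-AS1 rose by 0.85 (SE 0.07, adjusted p = 6.0e-08), SNHG3 by 0.63, SNHG17 by 0.49 and SNHG29 by 0.45. The rise of SNHG29 was nearly the same in each line, at 0.44, 0.45 and 0.47. Of 48 protein-coding hosts, many of them ribosomal protein genes that the next lists also hold, 30 rose and 4 fell, with a lower median of 0.16. RPL21, a ribosomal protein gene, rose by 0.82, EIF3A, a subunit of an initiation factor, by 0.60, WDR43, a factor of small subunit processing, by 0.56, and EIF4A2, an RNA helicase of translation initiation, by 0.55.

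Genes with a TOP start that code for proteins had medians nearer to 0. Of 21 translation factors with a TOP start, 7 rose and 2 fell on average (4 fell without replicate 2 of HCC38 LNA NS), with a median of 0.07. In HCC38 alone the balance was the other way, with 2 risen, 6 fallen and a median of −0.13. That number of fallen genes rested on single libraries, so the reversal is uncertain. EIF4A2 and EIF3A are in this list, EEF2, the elongation factor of translocation, rose by 0.31 and EIF4B by 0.31, and EEF1A1, the factor that delivers aminoacyl-tRNA, had 0.10 (adjusted p = 0.16). Of 76 cytosolic ribosomal protein genes, 30 rose and 6 fell with a median of 0.11, and 18 or 19 rose without replicate 2 of MDA-MB-468 LNA NS, replicate 1 of SUM149PT LNA NS or replicate 2 of either HCC38 group. RPLP1, a stalk protein, fell by 0.51 on the log2 scale, while RPS3A (0.74) and RPL7 (0.53) rose. RPL21, RPS3A and RPL7 had means of 14.8, 15.2 and 10.1 CPM, against 756 CPM for RPLP1, and have many processed pseudogenes, so their values are uncertain.

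**Figure D4:**
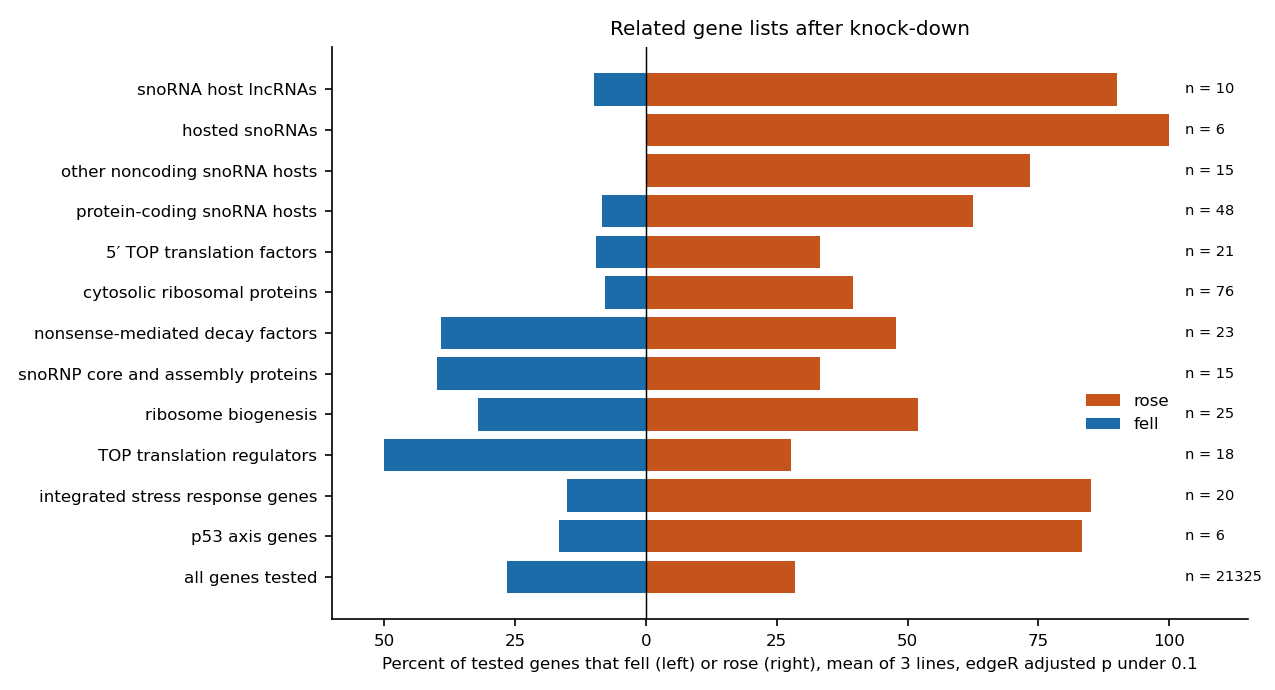
Share of the tested genes of each list that fell (left) or rose (right) on average over the 3 lines, in percent of the n genes tested, at an edgeR adjusted p under 0.1. The snoRNA host lncRNAs, their snoRNAs, the other non-coding hosts and the integrated stress response genes lie mostly to the right, and all genes tested give 28.4% up and 26.5% down.

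The genes through which these hosts are known to be degraded did not move in 1 direction. Of 23 NMD factors, 11 rose and 9 fell on average, with a median log2 fold change of 0.07. NCBP1, the large subunit of the nuclear cap-binding complex, fell by 2.81 on the log2 scale, SMG6, the endonuclease of NMD, by 1.41, and DHX34, a helicase of NMD complex remodelling, by 0.72. The decapping enzyme gene DCP2 rose by 0.67. UPF1, the central helicase, had −0.17, 0.42 and 0.22 in MDA-MB-468, SUM149PT and HCC38, of which the value in SUM149PT passed (adjusted p = 0.0038), and SMG1, the kinase of UPF1, had 0.54, 0.56 and −0.01, of which the first pair passed. Protein, phosphorylation and RNA decay rates were not measured.

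Regulators of TOP translation moved both ways. Of 18 genes, 5 rose and 9 fell, with a median of −0.09. RPTOR, the scaffold of mTORC1, fell by 1.62 on the log2 scale and TSC2, a brake on mTORC1, by 1.61. SESN2 and SESN3, sestrins that restrain mTORC1, rose by 0.89 and 1.55. LARP1, the protein that binds TOP starts, had −0.07 (adjusted p = 0.424), and DDIT4, an mTORC1 inhibitor induced by stress, had 0.07, −0.50 and −0.09 in the 3 lines, of which the value in SUM149PT passed. These are RNA levels and no measure of mTOR activity.

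The integrated stress response, in which phosphorylated eIF2α lowers general translation and raises ATF4, had the largest share of rising genes after the 10 hosts and their 6 snoRNAs. Of its 20 genes, 17 rose and 3 fell on average, with a median log2 fold change of 0.64 against 0.68 for the 10 hosts. By line the medians were 0.41 in HCC38, 0.80 in MDA-MB-468 and 0.56 in SUM149PT, beside 0.35, 0.77 and 0.79 for the hosts, and both come from the same libraries. CHAC1, which degrades glutathione, rose by 1.94, ATF3, a stress transcription factor, by 1.87, PPP1R15A, which recruits the phosphatase of eIF2α, by 1.46 and ASNS, asparagine synthetase, by 1.45. ATF4 rose by 0.41 (0.40, 0.59 and 0.24 by line). DDIT3, the pro-apoptotic CHOP, had 0.72, 0.04 and 1.03 in MDA-MB-468, SUM149PT and HCC38 and did not pass in SUM149PT. PHGDH, CEBPB and DDIT4 were the 3 that fell. Of 6 genes around p53, 5 rose and 1 fell on average. The latter, CDKN1A, the cell cycle inhibitor p21, fell in MDA-MB-468 (log2 fold change −0.66) and did not pass in SUM149PT (−0.06) or HCC38 (0.11). PMAIP1 and BBC3, which code for pro-apoptotic BH3-only proteins, rose by 1.43 and 0.82, and MDM2 rose by 0.53. GADD45A, which both lists hold, rose by 0.68. The part of a stress response in the change of the hosts was not tested.

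Genes of the proteins that assemble snoRNAs into particles moved both ways. Of 15 measured, 5 rose and 6 fell, with a median of 0.01. ZNHIT6, an assembly factor of box C/D particles, fell by 0.89 on the log2 scale, and the ATPases RUVBL2 and RUVBL1 of the same pathway fell by 0.54 and 0.30, while NOP56, a core protein of these particles, rose by 0.36. Of 25 genes of ribosome biogenesis 13 rose and 8 fell on average, with a median of 0.12, while in HCC38 alone 3 rose and 8 fell, with a median of −0.05. The numbers in HCC38 rested on single libraries, so that balance is uncertain. NAT10, an RNA acetyltransferase, fell by 0.75, UBTF and TCOF1, factors of ribosomal RNA transcription, each fell by 0.59, and GNL3, nucleostemin, rose by 0.48.

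Over the 12 libraries, the pattern of each host was compared with that of 14820 other genes, the hosts themselves left out, by Pearson's r of log2 CPM, a measure to which both the lines and the treatment contribute. The closest gene was RNF39 for GAS5 (r = 0.99), TMEM81 for SNHG1 (0.99), RHEBL1 for SNHG5 (0.97), ZFP37 for SNHG6 (0.94), CD55 for SNHG8 (0.94), UBXN8 for SNHG12 (0.99), KIF9 for SNHG15 (0.99), HSPA9 for SNHG16 (0.98), GGPS1 for ZFAS1 (0.99) and TSPAN14 for SNHG7 (0.98). HSPA9, a mitochondrial chaperone gene and itself a snoRNA host, had log2 fold changes of 0.76, 0.35 and 0.13 in MDA-MB-468, SUM149PT and HCC38, the same order of lines as SNHG16. TSPAN14, a tetraspanin gene, had −1.13, −0.40 and −0.67 beside the −1.77, −0.34 and −1.02 of SNHG7. Among the hosts themselves, GAS5 and SNHG15 were the most alike (r = 0.99). The 36 pairs without SNHG7 had r from −0.35 to 0.99 with a median of 0.45, and the 9 pairs with SNHG7 had r from −0.84 to 0.32 with a median of −0.07. Each host was also compared with the mean standardized pattern of the 10 hosts, of which it is itself a part, which raises its r. SNHG1 followed this mean most closely (r = 0.94) and SNHG7 least (r = −0.14), with SNHG5 next at 0.15. Nearest to that mean pattern were SLC25A38, a mitochondrial glycine carrier gene, ARRDC2, SYAP1, SNORA65 and NCBP2, with r from 0.96 to 0.98. NCBP2, the small subunit of the nuclear cap-binding complex, had a mean log2 fold change of 0.49, opposite in sign to NCBP1.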

How the data were processed

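RNA-seq libraries of polyA-selected RNA were prepared strand-specifically. The authors deposited raw counts, whole numbers of reads per Ensembl gene, not normalized. The study's methods name STAR for alignment (GRCh37, hg19) and HTSeq for counting, while the submitters' processing notes list TopHat2 2.0.13, HTSeq 0.6.0 and DESeq 3.0, so the aligner of these counts is unsettled. The annotation release and the strand setting are not given in the sources used here. Reads in no gene, ambiguous, unaligned or with several alignments (40.8% to 53.7% of each library) stayed out of library sizes and tests. Genes that share sequence with copies lose reads that way.

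From the counts, edgeR 4.0.16 (R 4.3.3) kept genes by filterByExpr (minimum count 10, minimum total 15), normalized by TMM and fitted 1 mean for each of the 6 groups, with 6 residual degrees of freedom. A gene is called at a Benjamini-Hochberg adjusted p under 0.1 over the 21325 genes tested. SE is that of the log2 fold change. Alternatives were DESeq2 1.42.0, other scalings, no filter, each line alone, a replicate block, removal of a gene length trend and leaving out each library, and, chosen after seeing the data, the canonical transcript length for levels per kb. The code was tested on simulated data. Libraries of a group differed beyond counting noise (chi-square per degree of freedom 17.6 to 31.4).

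The hosts, lists and tests were chosen with earlier results of these data known. Named are the 10 hosts, the targeted lncRNA, their snoRNAs with at least 10 counts in a library, up to 4 genes a list by smallest adjusted p on average with at least 1 CPM, UPF1, SMG1, ATF4, DDIT3, ASNS, EEF1A1, LARP1 and DDIT4, and the nearest patterns (1 for each host, 5 for their mean). The genes opposite a host, PHGDH, CEBPB, CDKN1A, KRT8, EPCAM, KRT14 and KRT17 were named after their values were seen. Positions and lengths come from GENCODE 44 lifted to GRCh37, which matched 55665 of 63677 genes, the others holding 0.636% of counts. Start sequences come from RefSeq.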

Additional observations from a re-analysis of the deposited data

Results flagged for a closer look

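The response to knock-down differed between the 3 lines for 4 hosts by edgeR's test of the interaction. The same test was passed by 32.4% of all genes tested (adjusted p under 0.1), so the share of hosts is near the background. For the hosts the adjusted p was 0.00489 for SNHG1, 0.0447 for SNHG5, 1.9e-04 for SNHG7 and 0.00169 for SNHG16. SNHG1, SNHG5 and SNHG16 rose least in HCC38, with log2 fold changes of 0.37, 0.34 and 0.26, and SNHG7 fell least in SUM149PT, with −0.34. On the log2 scale the targeted lncRNA, too, changed least in HCC38, by −3.09 against −4.75 and −4.41 in MDA-MB-468 and SUM149PT. The value in MDA-MB-468 rests on 29 and 23 counts with LNA NS and on 1 and 1 after knock-down. Mean levels of the target with LNA NS were 0.703 CPM in MDA-MB-468, 10.9 CPM in SUM149PT and 14.8 CPM in HCC38. The part of the target in the differences between lines was not tested.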

How the results depend on the processing

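With a change over 2-fold also required, 2 hosts rose in MDA-MB-468, 2 rose and 0 fell in SUM149PT, 0 rose in HCC38 and 0 rose on average. In the fits without 1 library, risen hosts numbered 2 to 9 in HCC38, fallen hosts 0 to 1 in SUM149PT and hosts with differing responses 3 to 7. The counts on average, 9 risen and 1 fallen, were the same in all 12 of these fits, where a lone library is assumed to vary like the other groups. The same fits gave 1 to 4 hosted snoRNAs risen in MDA-MB-468 and 0 to 4 in SUM149PT, 0 to 1 other non-coding hosts fallen, 2 to 4 TOP translation factors fallen and 18 to 39 ribosomal protein genes risen on average. Among the snoRNAs in SUM149PT, 3 rose with DESeq2 size factors, 1 by DESeq2 and 2 with a replicate block, and in HCC38 1 rose with a block. With the gene length trend removed, 1 other non-coding host and 1 TOP translation factor fell, 6 hosts rose in HCC38 (without SNHG8 and SNHG12) and the responses of 6 differed between lines. Without a filter on low counts the calls of SNHG8 in MDA-MB-468 and SNHG16 in HCC38 were lost, SNHG6 passed in HCC38 and 6 responses differed, and with each line fitted alone SNHG16 was lost and SNHG6 passed in HCC38. SNHG6 also passed in HCC38 with DESeq2 size factors, with total gene counts as the scaling and by DESeq2. The cause of these shifts was not tested, beyond the smaller number of libraries.

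Same-numbered libraries of a line did not deviate together (r of −0.02, 0.16 and −0.25 in MDA-MB-468, SUM149PT and HCC38), so the replicate numbers gave no pairing. A replicate block left 8 risen hosts in MDA-MB-468 (without SNHG8) and 6 in HCC38 (without SNHG5 and SNHG16) and changed no other count of hosts. With the numbers of HCC38 crossed, an alternative chosen after seeing the data, 7 hosts differed between lines, and SNHG6 and 1 hosted snoRNA rose in HCC38. In none of the alternatives did a host change direction. Depth limits the snoRNAs most, with 101 to 830 counts each.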
